A study of Mus musculus with 12 samples.

Results

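The 6 arrays of Yap organoids were set against the 6 arrays of liver material in which Yap had never been induced, and the genes described are those for which every array of 1 side lay above every array of the other. Of 19937 genes with their own row on the array, 154 were higher on all 6 Yap-history arrays than on any never-induced array (0.772% of genes) and 135 were lower on all 6 (0.677%), 289 genes in all (1.45%). These shares are the ones to set beside the counts of gene lists below. All 12 arrays of the study entered the comparison. RNA of C57Bl6 mouse liver was hybridized to MoGene 1.0 ST arrays from Affymetrix, with 3 libraries in each of 4 groups. The 3 uninduced libraries hold FACS-sorted, YFP-positive liver cells that the labels call hepatocytes, and the 3 wild-type organoid libraries hold cells cultured under wild-type conditions. The Yap-off and Yap-on organoids both come from liver in which Yap was on for 3 weeks. Doxycycline was then left out of the culture for 2 weeks, so that Yap was off, or kept in it, so that Yap stayed on. In each comparison of Yap on with Yap off, doxycycline itself cannot be told apart from Yap. These 2 groups also differed in the sex-linked RNA Xist, as given below. All organoids were grown for 2 weeks. The Yap side thus joins 2 culture conditions, and the never-induced side joins sorted cells and cultured organoids. Ages, the sequence of the transgene and the promoter or cell type that drives it or the YFP label are not given in the sources used here. By this design a history of Yap cannot be told apart from genotype or from any other difference between the animals. The labels do not say whether replicates are separate animals or cultures, and p-values cover just the spread among the libraries at hand, part of which may be technical.

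Yap is a transcriptional coactivator that binds DNA through TEAD factors and is held in the cytoplasm by the Hippo kinase cascade when that cascade is active. In liver it is known for setting organ size, and high Yap activity in hepatocytes is known to bring out genes of bile duct and progenitor cells. Liver organoids are cysts of epithelial cells with tight junctions and desmosomes, and they are usually grown from duct-like cells.

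The never-induced libraries did not group by label. Lyz2, the lysozyme of macrophages, had a log2 intensity of 11.56 to 12.16 in wild-type organoid 1, wild-type organoid 3 and hepatocyte 2, and of 5.28 to 6.30 in the other never-induced libraries. Over 19 macrophage markers the summed linear intensity ran from 24370 to 44870 in those 3 libraries, from 345.3 to 706.3 in the other never-induced ones and from 274.9 to 495 in the Yap-history ones. The summed level of 19 endothelial markers ran from 197.7 to 20930 on the never-induced side and from 221.1 to 257.4 on the Yap side. Krt19, a bile duct keratin, took the opposite split among the never-induced libraries, at 10.21, 9.82 and 9.28 in hepatocyte 1, hepatocyte 3 and wild-type organoid 2 and at 4.28 to 4.95 in the rest. Albumin (Alb), the main plasma protein of hepatocytes, lay between 11.53 and 12.33 in all 6 never-induced libraries, from 12.26 to 12.54 in the Yap-off and from 3.29 to 3.68 in the Yap-on organoids. Cyp2e1, a cytochrome P450 of mature hepatocytes, lay between 9.90 and 10.14 in hepatocyte 2 and wild-type organoid 1 and 3. It lay between 2.74 and 3.22 in the other never-induced libraries, from 3.89 to 5.58 in the Yap-off and from 2.80 to 2.86 in the Yap-on organoids. Lyz2 and Cyp2e1 were chosen after their values were seen. Over 27 hepatocyte markers the median level was 9.23, 9.57 and 9.49 in hepatocyte 1, 2 and 3 and 9.65, 6.59 and 10.11 in wild-type organoid 1, 2 and 3, so these markers as a list did not set the libraries labelled hepatocyte apart from wild-type organoid 1 and 3. Main counts are repeated after removal of hepatocyte 2 and wild-type organoid 2, called the doubtful pair because each differs from the others of its label. Removal keeps hepatocyte 1 and 3, with high Krt19 and low Cyp2e1. It also keeps wild-type organoid 1 and 3, with high Cyp2e1 and macrophage markers. Whether the removed or the kept libraries are at odds with their labels was not tested. Because the rule asks every Yap-history array to lie beyond every never-induced one, an exchange of labels within the never-induced side leaves the 289 genes as they are.

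Yap1 itself was not among the 289. Its lowest, median and highest never-induced values were 4.93, 6.88 and 7.51, the Yap-off values were 7.35, 7.21 and 6.88 and the Yap-on values were 7.45, 7.40 and 7.28. The sides overlapped, and the log2 difference was 0.70 ± 0.38 (SE; limma adjusted p = 0.416). The sources used here do not state whether the Yap1 probes detect the transgene.

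limma, the test used for all genes, called 59 genes of 19937 at an adjusted p under 0.05 (0.296%), 36 higher (0.181%) and 23 lower (0.115%), and 2871 had an unadjusted p under 0.05. Of the 59, 33 were among the 154 higher and 22 among the 135 lower genes, as the rule uses the same contrast. The other 4, named here because they fell outside the rule, were Arl2bp, Grtp1 and Inava, higher, and Dhrs3, lower. With hepatocyte 2 and wild-type organoid 2 removed, 289 genes were called higher and 104 lower, 58 of the 59 among them, and 791 and 613 genes were without overlap. The number of calls depended strongly on single libraries. It was 8, 12 and 16 without hepatocyte 1, 2 and 3, 13, 482 and 5 without wild-type organoid 1, 2 and 3, 37, 13 and 26 without Yap-off organoid 1, 2 and 3, and 12, 4 and 13 without Yap-on organoid 1, 2 and 3. With the 4 labelled groups as means it was 847, and with the labelled group as a random block, which lets arrays of 1 label share their deviations (estimated correlation 0.236), it was 4. Krt23, Tmem30b, Sgpp2 and Fez2 were these 4, at an adjusted p of 0.00825, 0.00825, 0.0219 and 0.0225, and they were called in every fit that left out 1 library (highest adjusted p 0.00431, 0.00576, 0.00775 and 0.00775). The other called genes named below lost their call in 1 to 11 of the 12 such fits and with the random block (adjusted p from 0.124 to 0.322), with the direction kept.

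The epithelial keratin Krt23 and the flippase subunit Tmem30b stood furthest from the never-induced arrays among genes higher with a Yap history. In the other direction Fez2, an adaptor of kinesin transport, had the lowest adjusted p. The promoters of these 3 genes are shown with that of Cldn7, a tight junction gene higher in the Yap organoids, to give the sequence before each start beside its measurements. Each is the 250 bases before a RefSeq transcription start on GRCm38.p6, printed 5′ to 3′ on the gene's own strand in lower case. Capitals mark a match to 1 of 4 motifs searched on both strands: GGAATG, the core bound by TEAD factors, TGANTCA for AP-1, CAAAGTCCA for HNF4, and a longer motif of HNF1. No matches overlap in the windows printed. The windows are Krt23 at chr11:99493121-99493370 on the minus strand, Tmem30b at chr12:73546396-73546645 on the minus strand, the first of 2 starts of Cldn7 at chr11:69964529-69964778 on the plus strand, and Fez2 at chr17:78418153-78418402 on the minus strand.
Krt23: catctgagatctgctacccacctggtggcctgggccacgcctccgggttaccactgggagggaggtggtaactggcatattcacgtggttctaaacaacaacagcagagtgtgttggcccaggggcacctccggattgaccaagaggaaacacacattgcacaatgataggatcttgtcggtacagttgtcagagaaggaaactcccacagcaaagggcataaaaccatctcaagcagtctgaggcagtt
Tmem30b: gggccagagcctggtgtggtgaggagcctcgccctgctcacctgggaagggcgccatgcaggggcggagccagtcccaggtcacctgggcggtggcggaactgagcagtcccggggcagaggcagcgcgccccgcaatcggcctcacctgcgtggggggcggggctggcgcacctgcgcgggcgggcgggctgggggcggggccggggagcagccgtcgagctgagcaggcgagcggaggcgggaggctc
Cldn7: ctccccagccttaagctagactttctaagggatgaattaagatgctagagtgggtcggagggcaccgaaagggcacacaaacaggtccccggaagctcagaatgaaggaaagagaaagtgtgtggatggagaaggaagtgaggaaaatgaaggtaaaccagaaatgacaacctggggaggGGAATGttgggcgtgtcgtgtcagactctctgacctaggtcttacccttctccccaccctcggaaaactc
Fez2: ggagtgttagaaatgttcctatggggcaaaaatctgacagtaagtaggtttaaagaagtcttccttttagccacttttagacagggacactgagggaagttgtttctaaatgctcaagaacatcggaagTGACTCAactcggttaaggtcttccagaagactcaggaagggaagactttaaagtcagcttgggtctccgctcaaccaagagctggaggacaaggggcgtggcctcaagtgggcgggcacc
The Cldn7 window holds GGAATG beginning 70 bases before the start, and the Fez2 window holds TGACTCA, which fits the AP-1 motif, beginning 121 bases before it. The window of the second Cldn7 start, not printed, and the Krt23 and Tmem30b windows hold none of the 4 motifs. RefSeq windows were found for 113 of the 154 higher and 117 of the 135 lower genes. GGAATG was in 11.7% of 145 windows of the higher genes and 11.9% of 159 windows of the lower genes, against 11.4% of all 19176 windows. The AP-1 motif was in 6.9% and 4.4% of them, against 6.04% of all windows. HNF1 was matched in 1.38% and 0.0%, against 0.334%, and HNF4 in 0.69% and 0.629%, against 0.417%. These shares lay near those of all windows, apart from HNF1, whose share in the higher genes comes from 2 windows.

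Krt23, Tmem30b, Sgpp2 and Tff3 were far above the never-induced libraries in every Yap organoid library, with Yap off and with Yap on. Keratin 23, a filament protein of simple epithelia, had never-induced values of 3.33, 3.76 and 4.46 (lowest, median and highest), Yap-off values of 6.38, 6.85 and 6.61 and Yap-on values of 7.39, 7.41 and 6.91. The lowest Yap array lay 1.92 above the highest never-induced one, and the 2 sides did not overlap. The mean was 6.93 ± 0.41 (SD, n = 6) with and 3.81 ± 0.49 (n = 6) without a Yap history, a log2 difference of 3.12 ± 0.25 (SE), or 8.69-fold (limma adjusted p = 0.000841). Tmem30b, a subunit of the enzymes that move phospholipids between membrane leaflets, had never-induced values of 2.90, 4.09 and 4.79, Yap-off values of 6.73, 6.79 and 6.99 and Yap-on values of 7.51, 7.39 and 7.18. Every Yap array was at least 1.94 above every never-induced one, the widest gap of all 289 genes, and the difference was 3.12 ± 0.27 (limma adjusted p = 0.000956). Sgpp2, which removes the phosphate of sphingosine 1-phosphate, lay at 2.95, 3.44 and 4.13 in the never-induced, 5.49, 5.97 and 5.90 in the Yap-off and 5.98, 6.36 and 6.94 in the Yap-on libraries. All 6 Yap arrays were high, without overlap, and the difference was 2.63 ± 0.25 (limma adjusted p = 0.00135). All never-induced values of Sgpp2 and the never-induced medians of Krt23 and Tmem30b lay below the gene medians of the arrays (4.14 to 4.34). The part of background in the size of these differences was not tested.

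Tff3, the trefoil peptide that mucus-producing epithelia secrete, had the largest positive difference of the 19937 genes. Its never-induced values were 4.76, 5.23 and 6.32, its Yap-off values 11.97, 12.25 and 12.41 and its Yap-on values 8.19, 10.59 and 8.34. The Yap-off libraries were the highest and 2 of the Yap-on libraries were near 8, still above every never-induced one. The side difference was 5.15 ± 0.77 (SE; limma adjusted p = 0.0293), with a fold of 35.5. With Yap on Tff3 was lower by a log2 difference of -3.17 than with Yap off (limma on 6 arrays, adjusted p = 0.00838). Eps8l3, of a family that regulates actin, ran the other way, at 3.48, 4.14 and 4.58 in the never-induced, 6.09, 6.65 and 6.55 in the Yap-off and 9.13, 9.16 and 9.15 in the Yap-on libraries. It was intermediate with Yap off and highest with Yap on, with a side difference of 3.70 ± 0.59 (limma adjusted p = 0.0368).

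**Figure D1:**
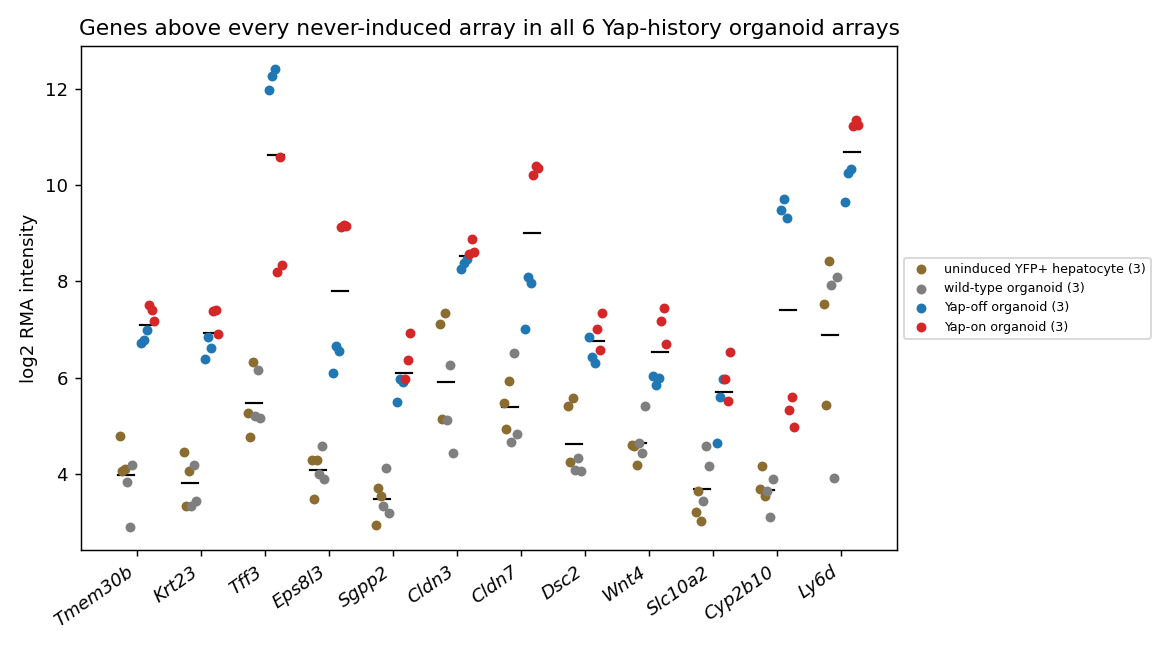
Log2 RMA intensity of 12 genes higher with a Yap history, 1 point per array coloured by labelled group, with black bars at the mean of the 6 arrays of each side. For each gene all 6 Yap arrays lie above all 6 never-induced arrays, and Tff3 and Cyp2b10 are highest in the Yap-off organoids while Eps8l3 and Cldn7 are highest in the Yap-on organoids.

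Genes of cell junctions and polarity supplied 6 of the higher genes from 25 measured (24% of the list, against 0.772% of all genes), none of the lower ones, and 24 of the 25 had a positive difference. The list median was 1.69, against 0.0007 over all genes, and 1.79 without the 2 doubtful libraries. limma called 3 of the 25 higher (0.181% of all genes). The claudin Cldn3, a strand protein of tight junctions, had never-induced values of 4.43, 5.71 and 7.34, Yap-off values of 8.25, 8.38 and 8.46 and Yap-on values of 8.57, 8.89 and 8.60, and rose by 2.62 ± 0.46 (SE; limma adjusted p = 0.0451). Its 6 Yap arrays were close together, and the never-induced arrays spread over nearly 3 log2 units below them. Cldn7, whose promoter is printed above, lay at 4.67, 5.20 and 6.51 in the never-induced, 7.0, 8.09 and 7.97 in the Yap-off and 10.21, 10.40 and 10.36 in the Yap-on libraries and rose by 3.62 ± 0.63 (limma adjusted p = 0.0451). The desmosomal cadherin Dsc2 lay at 4.06, 4.29 and 5.57 in the never-induced, 6.85, 6.43 and 6.31 in the Yap-off and 7.01, 6.58 and 7.35 in the Yap-on libraries and rose by 2.14 ± 0.30 (limma adjusted p = 0.0253). In Cldn7 the Yap-on arrays were more than 2 units above the Yap-off ones, whereas in Dsc2 the 2 kinds of Yap organoid overlapped.

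The other 3 junction genes were without overlap but did not pass limma. For occludin (Ocln) the gap between the sides was 0.07 and the difference 1.86 ± 0.43 (SE; limma adjusted p = 0.11). Marveld2, tricellulin, which seals corners where 3 cells meet, had a gap of 0.23 and a difference of 2.02 ± 0.40 (adjusted p = 0.0615), and the scaffold Tjp3 one of 0.07 and 1.42 ± 0.35 (adjusted p = 0.12). Hepatocyte 1, hepatocyte 3 and wild-type organoid 2 held more Ocln and Marveld2, at 5.43 to 6.47, than the other 3, at 3.54 to 4.46. Cldn3 (6.26 to 7.34 against 4.43 to 5.15), Cldn7, Dsc2 and Tjp3 took the same order without overlap. Krt23, Tff3, Eps8l3 and Esrp2 did so too, whereas Tmem30b, Sgpp2 and Marveld3 did not. The part of this split in the side differences was not tested. Marveld3, another tight junction gene outside the list, lay at 3.08, 3.50 and 4.32 in the never-induced, 5.02, 4.56 and 4.61 in the Yap-off and 6.22, 6.10 and 5.92 in the Yap-on libraries and rose by 1.89 ± 0.34 (limma adjusted p = 0.0473). Esrp2, a splicing regulator of epithelial cells, differed by 1.87 ± 0.38 without overlap (adjusted p = 0.0758). Ocln, Tjp3, Marveld2, Marveld3 and Esrp2 were chosen for naming after their values were seen.

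Biliary and ductal markers gave 3 of 21 measured, Krt23, Cldn7 and Cldn3, all called, where 0.772% of all genes were higher without overlap and 0.181% were called higher. The claudins are counted in the junction list too. The median of these 21 markers was 2.45, and 20 had a positive difference. Krt19, the best-known duct keratin, was not among the 289, since its Yap-off values (7.56, 7.0 and 7.18) lay below those of 3 never-induced libraries, and its Yap-on values were 12.13, 12.25 and 12.01. Of 15 keratins only Krt23 was without overlap, and of 28 gastrointestinal genes only Tff3, with list medians of 0.27 and 0.09.

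**Figure D2:**
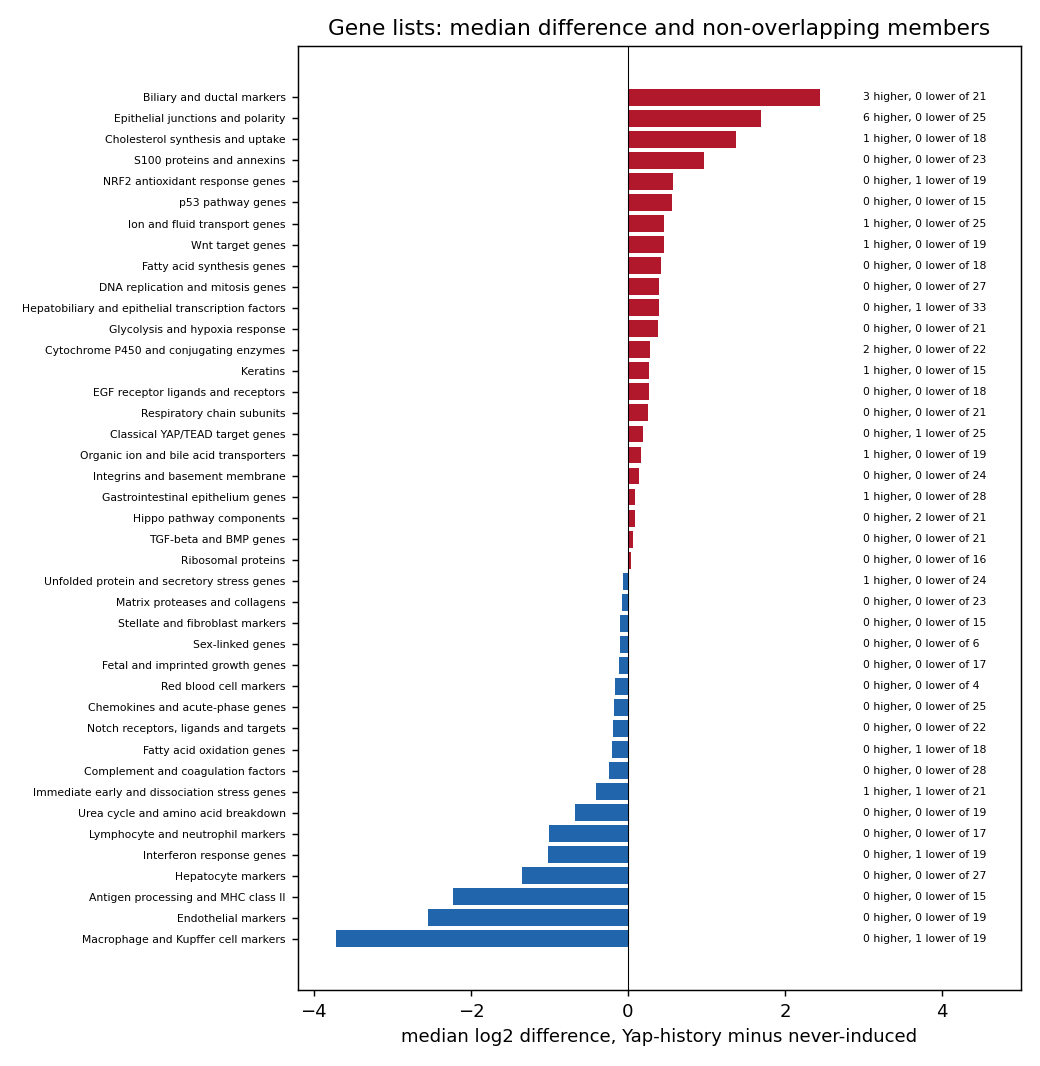
Median log2 difference of each of 41 gene lists, Yap-history minus never-induced side, as bars from 0, with the number of genes without overlap in each direction and of genes measured at the right. Through a shared synonym Olfr48 stands for C3 in the complement list, Nckap1 for H19 in the fetal list and Pigq for Gpi1 in the glycolysis list. The medians and measured numbers of these lists include these unrelated genes. Biliary markers (2.45) and junction genes (1.69) have the highest medians and the most members higher, while macrophage (-3.72) and endothelial (-2.54) markers have the lowest and 1 and 0 members lower.

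Cxcl17, Slc10a2, Wnt4, Slc35c1 and Pgap6 rose as well. The chemokine Cxcl17 of mucosal surfaces rose by 2.73 ± 0.48 (SE; limma adjusted p = 0.0466) and was variable among Yap arrays, from 5.68 to 8.76. Slc10a2, the sodium-dependent bile acid transporter of ileum and bile duct epithelium, lay at 3.04, 3.55 and 4.59 in the never-induced, 4.64, 5.61 and 5.98 in the Yap-off and 5.97, 5.53 and 6.53 in the Yap-on libraries. Yap-off organoid 1 was only 0.06 above the highest never-induced array, and the difference was 2.02 ± 0.33 (adjusted p = 0.0398). Wnt4, a Wnt ligand, lay at 4.19, 4.60 and 5.41 in the never-induced, 6.04, 5.84 and 6.0 in the Yap-off and 7.18, 7.45 and 6.71 in the Yap-on libraries, higher with Yap on than off, and rose by 1.89 ± 0.30 (limma adjusted p = 0.0374). The Wnt feedback gene Axin2 was the only one of 19 Wnt targets without overlap, where 0.772% of all genes were higher. It differed by 1.04 ± 0.25 (limma adjusted p = 0.12). The GDP-fucose transporter Slc35c1 rose by 1.33 ± 0.23 (adjusted p = 0.0451). Pgap6, which trims lipid anchors of membrane proteins, rose by 2.37 ± 0.29 (adjusted p = 0.0141), and the difference between Yap on and off was within the spread of the libraries (-0.04, adjusted p = 0.935).

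Among regulators, Zfp750, a transcription factor of epidermal differentiation, lay at 3.87, 4.21 and 5.0 in the never-induced, 6.43, 6.37 and 6.20 in the Yap-off and 5.51, 5.96 and 5.59 in the Yap-on libraries. It was highest with Yap off, and rose by 1.66 ± 0.23 over the never-induced side (SE; limma adjusted p = 0.0253). Creb3l2, a membrane-bound transcription factor of secretory cells, rose by 1.14 ± 0.15 (adjusted p = 0.0202). It was the only called gene of 24 in the list of unfolded protein and secretory stress, whose median was -0.06. Mpzl3 and Tmem125, both membrane proteins, rose by 2.05 ± 0.31 and 2.08 ± 0.37 (limma adjusted p = 0.0342 and 0.048).

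Ly6d, Cyp2b10, Cyp3a13 and Fxyd3 were without overlap and far apart in mean, yet did not pass. Ly6d, a GPI-anchored surface protein named here after its values were seen, lay at 3.93, 7.72 and 8.43 in the never-induced, 9.65, 10.24 and 10.34 in the Yap-off and 11.23, 11.35 and 11.24 in the Yap-on libraries. The gap was 1.22, but the never-induced arrays ran over more than 4 log2 units (difference 3.79 ± 0.73; limma adjusted p = 0.0592, and 0.0109 without the 2 doubtful libraries). Cyp2b10, the cytochrome P450 known for its response to xenobiotics through the receptor CAR, lay at 3.12, 3.67 and 4.17 in the never-induced, 9.48, 9.71 and 9.32 in the Yap-off and 5.32, 5.61 and 4.97 in the Yap-on libraries. It was about 4 units higher with Yap off than with Yap on, where it was still above all never-induced values (3.73 ± 0.89; adjusted p = 0.11). Cyp3a13, the other of 22 cytochrome P450 and conjugating enzymes without overlap, differed by 2.24 ± 0.44 (adjusted p = 0.0635), and that list had a median of 0.28. Fxyd3, a regulator of the sodium pump, differed by 3.53 ± 0.68 (adjusted p = 0.0574).

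Dhcr7, the enzyme of the last step of cholesterol synthesis, was the only one of 18 genes of cholesterol synthesis and uptake without overlap. It lay at 5.06, 6.46 and 7.15 in the never-induced, 8.54, 8.73 and 8.66 in the Yap-off and 7.40, 7.70 and 7.18 in the Yap-on libraries, and its difference of 1.74 ± 0.38 did not pass (limma adjusted p = 0.0978). All 18 genes had a positive difference, with a median of 1.38 and 1.54 without the doubtful libraries. Of these, 16 had an unadjusted limma p under 0.05, against 2871 of all 19937 genes, and limma called none after adjustment. Among all genes 0.772% were higher without overlap. The early response gene Ier3 differed by 1.43 ± 0.40 (adjusted p = 0.178).

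Fez2, Tgm2, Nampt and Hmox1 were among the genes that fell with a Yap history. Fez2 had never-induced values of 6.53, 6.69 and 6.83 (lowest, median and highest), Yap-off values of 5.82, 5.27 and 5.40 and Yap-on values of 5.76, 5.58 and 5.65. Both sides were tight, all 6 Yap arrays were lower, and the log2 difference was -1.12 ± 0.11 (SE; limma adjusted p = 0.00135). Tgm2, the transglutaminase that crosslinks proteins, lay at 8.71, 8.99 and 10.18 in the never-induced, 6.78, 7.0 and 7.23 in the Yap-off and 7.90, 7.78 and 7.08 in the Yap-on libraries. Its highest value, in the library labelled hepatocyte 2, stood apart, and the sides did not overlap (-1.84 ± 0.27; limma adjusted p = 0.0274). Nampt, the rate-limiting enzyme of NAD salvage, lay at 6.94, 7.87 and 8.34 in the never-induced, 5.89, 5.46 and 5.38 in the Yap-off and 6.10, 6.21 and 5.80 in the Yap-on libraries and differed by -1.91 ± 0.26 (adjusted p = 0.0218). Hmox1, which breaks down heme, lay at 9.06, 11.69 and 12.23 in the never-induced, 8.72, 7.74 and 7.74 in the Yap-off and 8.18, 7.88 and 8.09 in the Yap-on libraries. Of the never-induced libraries the one labelled wild-type organoid 2 was lowest, and all Yap arrays were below it, with a fall of 9.3-fold (-3.22 ± 0.47; limma adjusted p = 0.0274). Hmox1 was the only gene without overlap among 19 measured NRF2 response genes, whose median was 0.57. Among all genes 0.677% were lower without overlap.

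**Figure D3:**
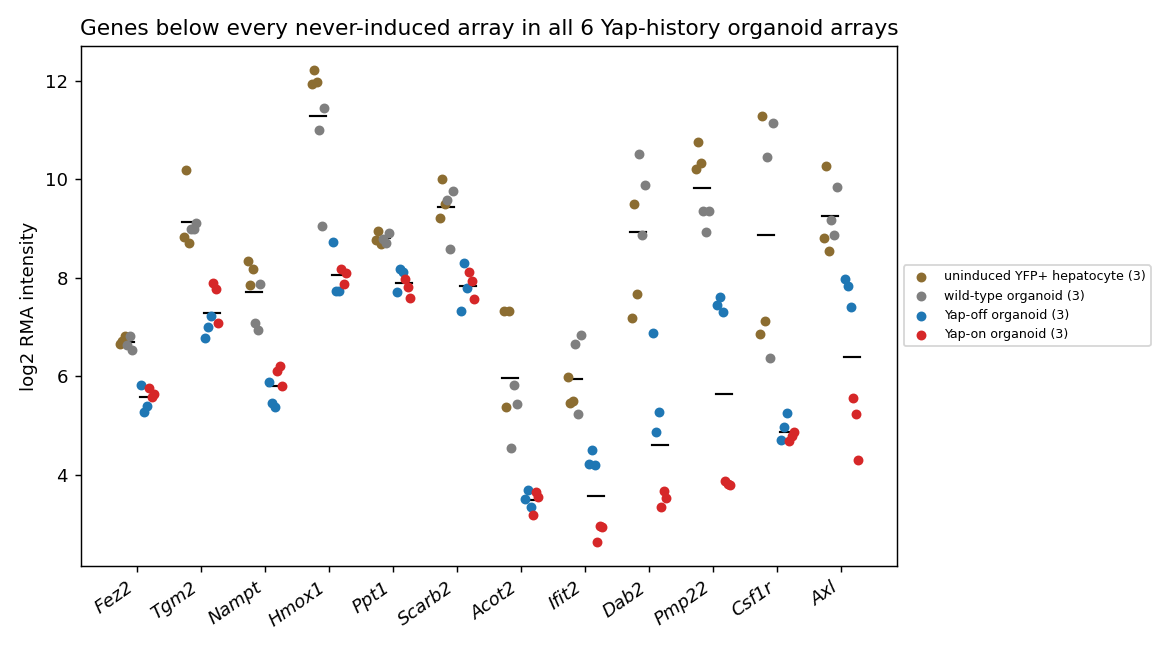
Log2 RMA intensity of 12 genes lower with a Yap history, drawn as in the plot of higher genes. All 6 Yap arrays lie below all 6 never-induced arrays in each gene; Fez2 and Ppt1 are tight on the never-induced side, while Csf1r runs there from 6.37 to 11.28.

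Ppt1, Scarb2, Uvrag, Bmp2k, Dab2, Exoc6 and Pacs2 also fell. Ppt1, a lysosomal enzyme that removes fatty acids from proteins, lay at 8.69, 8.78 and 8.96 in the never-induced, 7.72, 8.19 and 8.11 in the Yap-off and 7.97, 7.82 and 7.60 in the Yap-on libraries (-0.90 ± 0.11; limma adjusted p = 0.0141). The never-induced arrays lay within 0.3 of each other, and all Yap arrays were below them. Scarb2, the receptor that brings glucocerebrosidase to lysosomes, lay at 8.59, 9.54 and 10.01 in the never-induced, 7.33, 8.31 and 7.80 in the Yap-off and 8.12, 7.93 and 7.58 in the Yap-on libraries (-1.60 ± 0.24; adjusted p = 0.0285). Dab2, an adaptor of clathrin-mediated endocytosis, lay at 7.19, 9.18 and 10.52 in the never-induced, 6.88, 4.88 and 5.28 in the Yap-off and 3.35, 3.68 and 3.54 in the Yap-on libraries. Yap-off organoid 1 was near the lowest never-induced array, the Yap-on arrays were lowest, and the difference was -4.34 ± 0.71 (limma adjusted p = 0.0398). The Yap-on values of Dab2 lay below the gene medians of the arrays (4.14 to 4.34), and the part of background in its fall was not tested. Uvrag, of the autophagy and endosome complex with Beclin, differed by -1.60 ± 0.25 (adjusted p = 0.0368), and Bmp2k, a kinase of endocytic adaptors, by -1.90 ± 0.27 (adjusted p = 0.0253). The exocyst subunit Exoc6 differed by -1.01 ± 0.17 and the sorting protein Pacs2 by -0.90 ± 0.14 (adjusted p = 0.0448 and 0.0368). Lipa, the lysosomal acid lipase, and the lysosomal protease Lgmn, named after their values were seen, differed by -1.86 ± 0.35 and -2.41 ± 0.54 without overlap and did not pass (adjusted p = 0.0572 and 0.0986). Ppt1, Scarb2, Uvrag, Dab2, Lipa and Lgmn were each higher in hepatocyte 2 and wild-type organoid 1 and 3, the libraries rich in macrophage markers, than in the other 3 never-induced libraries, and the part of this in their differences was not tested. Lgmn lay at 11.71 in hepatocyte 2 and 11.38 in wild-type organoid 3, and between 8.59 and 9.28 in the latter 3. Tgm2, described above, and Myo7a and Axl, described below, took the same order. Fez2, Nampt, Hmox1, Bmp2k, Exoc6 and Pacs2 did not.

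Further genes that fell were Acot2, Ifit2, Myo7a and Rapgef2. Acot2, a mitochondrial thioesterase of fatty acyl-CoA, lay at 4.55, 5.63 and 7.33 in the never-induced, 3.52, 3.70 and 3.35 in the Yap-off and 3.18, 3.66 and 3.56 in the Yap-on libraries (-2.48 ± 0.44; limma adjusted p = 0.0455). Its Yap values, on both cultures, were below the gene medians of the arrays (4.14 to 4.34), and the part of background in the size of the fall was not tested. Of 18 fatty acid oxidation genes the cytosolic Acot1 was the only one without overlap, where 0.677% of all genes were lower. It differed by -1.81 ± 0.46 (limma adjusted p = 0.131), and near-identical copies in the Acot family could share probes. Ifit2, an interferon-induced RNA-binding protein, lay at 5.25, 5.74 and 6.84 in the never-induced, 4.23, 4.50 and 4.21 in the Yap-off and 2.64, 2.97 and 2.95 in the Yap-on libraries, lowest with Yap on (-2.36 ± 0.40; limma adjusted p = 0.0437). The Yap-on values of Ifit2 lay below the gene medians of the arrays (4.14 to 4.34), and the part of background in its fall was not tested. Ifit2 was the only 1 of 19 interferon response genes without overlap, where 0.677% of all genes were lower. None of the 19 had a positive difference and the list median was -1.02. The myosin Myo7a differed by -2.03 ± 0.26 (adjusted p = 0.0163) and the Rap activator Rapgef2 by -1.34 ± 0.22 (adjusted p = 0.0369).

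Csf1r and other lower genes were highest in the 3 never-induced libraries with abundant macrophage markers. Csf1r, the receptor that macrophages need for survival, lay at 6.37, 8.79 and 11.28 in the never-induced, 4.71, 4.98 and 5.25 in the Yap-off and 4.70, 4.79 and 4.87 in the Yap-on libraries. Its gap was 1.12, but the never-induced arrays spread over nearly 5 log2 units and the difference of -3.99 ± 0.88 did not pass (SE; limma adjusted p = 0.0978; 0.0399 without the 2 doubtful libraries). Wfdc17, a secreted protein of the same 3 libraries, ran there from 11.15 to 12.10, from 4.78 to 5.66 in the other never-induced ones and from 2.78 to 3.61 with a Yap history. Slc40a1, the iron exporter ferroportin, was at 6.68, 8.52 and 11.30 in the never-induced arrays and from 5.81 to 6.24 in the Yap ones, and the transcription factor Zeb2 differed by -3.10 ± 0.89 with a gap of 0.02 (adjusted p = 0.21 and 0.185). Wfdc17 and Slc40a1 were named after their values were seen. In bulk RNA, fewer cells of a type and less RNA per cell cannot be told apart.

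Among the 135 lower genes, 55 (40.7%) had hepatocyte 2 and wild-type organoid 1 and 3 above the other 3 never-induced ones, an order that 14% of all genes showed. Among the 154 higher genes, 63 (40.9%) had the same 3 libraries below the other 3, against 19.9% of all genes. The opposite orders were seen in 3 lower and 2 higher genes. The part of these cell type differences in the 289 genes was not tested. Of the 19 macrophage markers Csf1r was the only one without overlap, with a list median of -3.72 and 0 of 19 positive differences. No endothelial marker of 19 was without overlap (median -2.54), and none of 15 genes of antigen processing and MHC class II (median -2.23).

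**Figure D4:**
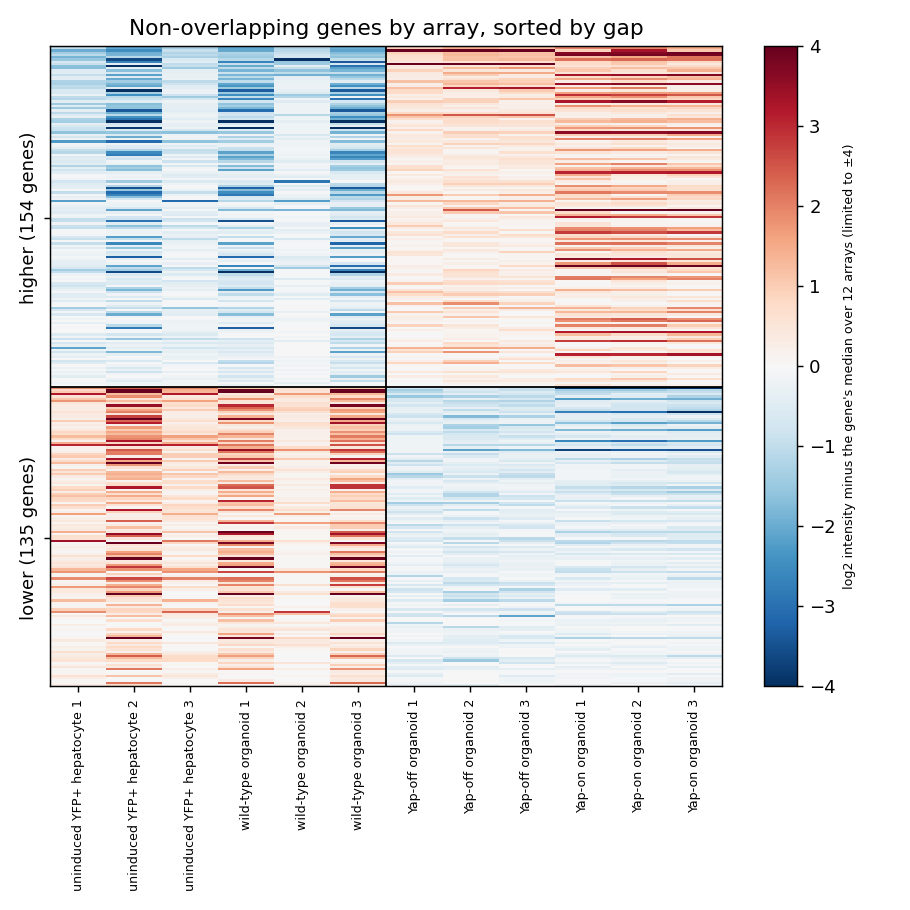
The 289 genes by array, as log2 intensity minus each gene's median over 12 arrays, with red high and blue low, genes of each direction sorted by their gap. Higher genes are at or below 0 on all never-induced arrays and at or above it on all Yap-history arrays, lower genes the reverse, and hepatocyte 2 and wild-type organoid 1 and 3 are the most strongly coloured never-induced arrays in many genes.

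Genes of the Yap pathway itself were counted beside the shares of all genes, 0.772% higher and 0.677% lower without overlap. Of 25 classical YAP/TEAD targets none was among the higher genes and 1, the receptor tyrosine kinase Axl, among the lower (4%). Their list median was 0.19. Axl lay at 8.55, 9.02 and 10.28 in the never-induced, 7.98, 7.84 and 7.40 in the Yap-off and 5.56, 5.25 and 4.30 in the Yap-on libraries. It was lowest with Yap on, and the side difference of -2.87 ± 0.64 did not pass (SE; limma adjusted p = 0.0986). Among never-induced libraries Axl was higher in those rich in macrophage markers (9.18 to 10.28) than in the rest (8.55 to 8.87). The part of this in its difference was not tested. Of 21 Hippo pathway genes 2 were lower without overlap (9.52%) and none higher. Counts this small do not show whether these lists differ from all genes. Stk4, the upstream kinase Mst1, differed by -0.86 ± 0.19 and Vgll4, a competitor of Yap for TEAD, by -0.65 ± 0.17, and neither passed (adjusted p = 0.102 and 0.156). Dusp1, a phosphatase of MAP kinases, was lower by a difference of -1.33 ± 0.29 (adjusted p = 0.0876). Of 27 hepatocyte markers none was among the 289. Their median level was 10.72 to 11.16 in the Yap-off organoids, above the 6.59 to 10.11 of the never-induced arrays, and 3.20 to 3.31 in the Yap-on organoids, so that the median side difference of -1.35 joins opposite directions. limma on the 6 Yap arrays called 26 of the 27 lower with Yap on than off, against 12% of all genes.

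Pmp22, a tetraspan membrane protein known from myelin and named after its values were seen, had the widest gap of the lower genes. It lay at 8.94, 9.79 and 10.76 in the never-induced, 7.44, 7.61 and 7.31 in the Yap-off and 3.87, 3.81 and 3.79 in the Yap-on libraries. The levels formed 3 steps, lower with Yap off and lower again with Yap on, and the difference of -4.18 ± 0.80 missed the threshold (SE; limma adjusted p = 0.0574). Between Yap on and off Pmp22 fell by 3.63 (limma on 6 arrays, adjusted p = 1.39e-06). Its Yap-on values lay below the gene medians of the arrays (4.14 to 4.34), and the part of background in the size of this fall was not tested.

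Whether Yap is on or off in culture was compared within the 289 genes. The rule did not set this contrast, but it chose the genes from the values of the same 6 Yap arrays. Doxycycline itself and the difference in Xist given below cannot be told apart from the state of Yap in this contrast. limma on the 6 Yap arrays called 113 of the 289 (39.1%), against 31.2% of all genes. Of the higher genes 6.49% and of the lower 8.15% were below the array median on all 12 arrays, against 37.1% of all genes. The 2 shares of calls thus come from unlike sets of genes and were not tested against each other. With the spread taken from all 12 arrays in their 4 labelled groups it called 49 of the 289, against 11.5% of all genes. Of the 154 higher genes 62 were higher still with Yap on and 13 were lower, where 19.1% and 12% of all genes were called in these directions. Of the 135 lower genes 23 were lower still with Yap on and 15 were higher. The median difference between Yap on and off was 0.25 for the higher and -0.01 for the lower genes, against -0.08 over all genes. Beside the never-induced mean, the higher genes had a median of 1.09 with Yap off and 1.61 with Yap on, and the lower genes -1.20 and -1.05. Both sets of values share the 6 never-induced arrays.

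Examples ran both ways. With Yap on Eps8l3 rose by 2.72 (SE 0.16), Cldn7 by 2.64 and Fxyd3 by 2.93 over Yap off (limma adjusted p = 3.71e-05, 0.000647 and 0.000102). Cyp2b10 fell by 4.20 and Dhcr7 by 1.22 (adjusted p = 9.31e-06 and 0.00121). Krt23 and Tmem30b rose by 0.62 and 0.52 (adjusted p = 0.0417 and 0.0211), small beside their distance from the never-induced side. For Fez2 and Hmox1 the on and off values differed by 0.16 and -0.01, within the spread of the libraries (adjusted p = 0.434 and 0.976). Xist, the RNA that coats the silenced X of female cells, was at 9.20, 8.49 and 8.98 with Yap off and at 3.14, 3.15 and 3.20 with Yap on. Of 6 sex-linked genes measured, limma on the 6 Yap arrays called 3 higher and 1, Xist, lower with Yap on. Of all genes 19.1% and 12% were called in these directions. The state of Yap in culture and the sex-linked difference cannot be told apart in any comparison of Yap on with off. Across the sides Xist overlapped, at 8.82 and 9.0 in hepatocyte 1 and 3 and at 3.00 to 3.30 in the other never-induced arrays.

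**Figure D5:**
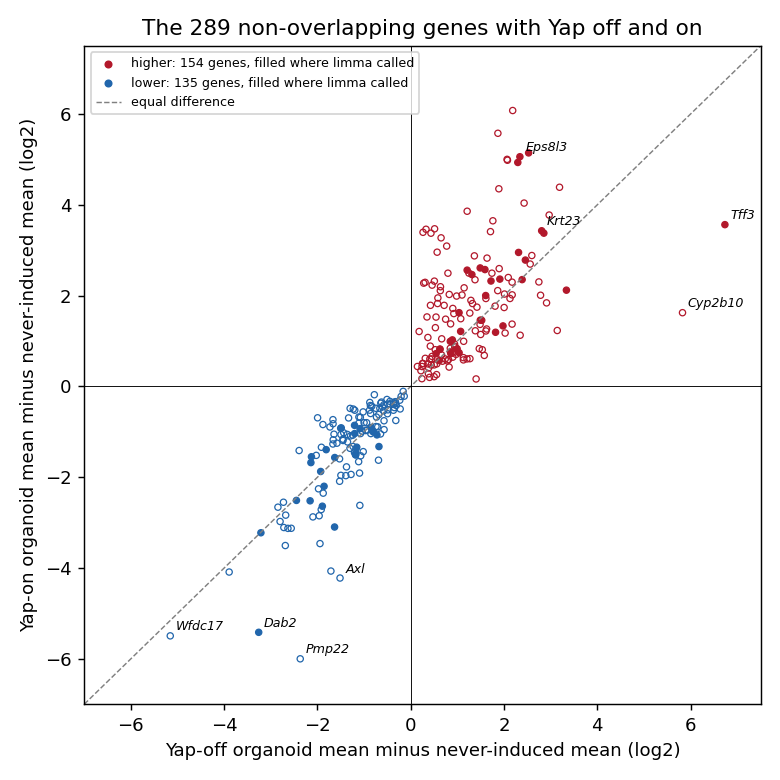
Mean log2 difference from the never-induced side with Yap off (horizontal) and with Yap on (vertical) for the 289 genes, filled where limma called the 6-against-6 difference, with a dashed line of equal difference. Tff3 and Cyp2b10 lie below it, with a larger difference with Yap off, and Eps8l3, Pmp22 and Axl differ more with Yap on.

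The rule leaves many small gaps. The gap was at least 1 in 7 higher and 3 lower genes and under 0.1 in 67 and 61. Just inside the limit were Ppp1r26 and Igll1 among higher and Lrrc47 and Sh3bp5 among lower genes, and just outside were Cyp2j6, Map3k13, Zfp236 and Fam193a, with gaps of -0.00366 to -0.00135. The differences of the higher genes ran from 0.21 to 5.15 (median 1.42) and those of the lower from -5.32 to -0.13 (median -1.21). At least 2-fold were 100 higher (0.502% of genes) and 80 lower genes (0.401%), and limma called 23 (0.115%) and 19 (0.0953%) of them. Only 10 higher and 11 lower genes were below the array median on all 12 arrays, against 37.1% of all genes. On all 6 never-induced arrays 43 of the 154 higher genes (27.9%) were below it. On all 6 Yap-history arrays 30 of the 135 lower genes (22.2%) were. The part of background in the size of their differences was not tested. The array nearest to the other side was most often wild-type organoid 2 among never-induced libraries (71 of 154 and 56 of 135) and Yap-off organoid 1 among Yap libraries (43 and 35). Against the 6 never-induced arrays the Yap-off organoids alone were without overlap in 900 higher and 725 lower genes (4.51% and 3.64%), and the Yap-on organoids alone in 1805 and 1429 (9.05% and 7.17%). The 154 and 135 are the genes in both.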

How the data were processed

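RNA of 12 libraries was extracted, amplified and labelled with kits and hybridized to Affymetrix arrays, per the labels. The deposited values are linear intensities that the authors made with RMA (background correction, quantile normalization, probe summary), per the submitters' processing notes. The version and genome build are not given in the sources used here. Values were turned to log2. Scan dates and detection calls were not used here. The median deposited intensity of an array lay between 13.6 and 15.6 and the highest between 7908 and 9588. The number of arrays limits the precision.

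Of 34760 array rows, 21640 named 1 gene in the probe table, 1321 named several and 11799 were not listed. The row with the highest mean stood for each of 954 genes with several rows, leaving 19937 genes. RefSeq names matched 21553 rows, 87 had no match and 0 symbols changed. For 12 of the 289 genes with several rows, all rows were without overlap in 4 and had the same sign in 11.

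The sides of 6 arrays were compared with limma 3.58.1 (R 4.3.3; lmFit, eBayes, 10 residual degrees of freedom), and Yap-on with Yap-off organoids on their own 6 arrays. P-values are Benjamini-Hochberg adjusted over all 19937 genes and called under 0.05. Differences carry limma's SE and lists have medians of log2 differences. No filter on low values was applied. On simulated data for the 6-against-6 comparison (19937 genes, 100 changed genes per size) the fit recovered 59% at a log2 difference of 1 and 82% at 2, with 3.42% of calls false. The simulated arrays were independent, with 1 spread for each gene and no groups within a side. These shares therefore do not cover the deviations that arrays of 1 label share in the deposited data (estimated correlation 0.236). The 289 genes, the 41 lists and the comparison were chosen with earlier results of these data known. Named are the first 15 called genes each way by gap without clone or multigene symbols, 6 fixed genes (Krt23, Tff3, Yap1, Alb, Krt19, Xist) and the 2 members of each list with the largest difference; others are said to be named after their values were seen. Figures were drawn with matplotlib 3.10.9, and promoters were read from RefSeq with Python 3.11.15. Alternatives were renewed quantile normalization, array-median centring, averaging the rows of each gene, a filter on the 30% of genes with the lowest mean, group means, a random group block, the replicate block, an intensity trend, array weights, a stricter threshold and leaving out libraries.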

Additional observations from a re-analysis of the deposited data

Results flagged for a closer look

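Of 124 sides of 6 arrays tested among the named genes, 3 had an array far from the other 5 by Dixon's 95% criterion, where chance flags about 1 in 20 groups. Cyp3a13 was lowest on the Yap side in Yap-off organoid 1, at 7.03, with the next at 7.66. Marveld3 was highest on the never-induced side in wild-type organoid 2, at 4.32, with the next at 3.50. Tgm2 was highest on that side in the library labelled hepatocyte 2, at 10.18, with the next at 9.10. Among 13120 array rows that name no single gene, used in no comparison above, 30 had every Yap-history array above every never-induced one (0.229%) and 33 had the reverse (0.252%). The widest gap among the 30 was 1.33.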

How the results depend on the processing

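Renewed quantile normalization gave 201 higher and 145 lower genes, sharing 124 and 102 with the main ones, and centring gave 132 and 141, sharing 119 and 117. limma calls shared 51 of 59 under the former (40 higher and 24 lower) and 33 of 59 under the latter. Neither moved the median of all genes by over 0.1. Leaving out 1 library gave 164 to 577 higher and 145 to 387 lower genes, both highest without wild-type organoid 2, and 791 and 613 without both doubtful libraries; leaving out an array can only keep or add such genes. limma calls were 36 higher and 23 lower. Leaving out 1 library gave 3 to 344 and 1 to 138. Centring gave 17 higher, 4 group means 573 and 274, the random group block 3 and 1, array weights 1564 and 803, an adjusted p under 0.01 3 and 1, and leaving out both doubtful libraries 289 and 104. The 113 of the 289 genes called between Yap on and off became 49 with 4 group means, 74 at an adjusted p under 0.01 and 83 to 131 without 1 library. The replicate block gave 4 higher and 1 lower call. Numbers were not seen to pair the samples: same-numbered samples of different groups correlated in their deviations at r = -0.711 to 0.118, and 1 of 12 arrays was closest to its own number. Since hepatocyte 2 and wild-type organoid 2 differ from the others of their label, this check cannot exclude that numbers mark shared animals or batches. Xist, not called, turned from 0.94 to -2.78 with array weights and to -0.0673 without both doubtful libraries. The causes of these shifts were not tested. No filter on detection was possible with the values used here, so low levels have no bound from signal over background.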

Other observations

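Some gene lists not described above gave no gene to the 289 and no limma call, and no test of a list was made. Over all genes the median difference was 0.0007 and 2871 of 19937 had an unadjusted p under 0.05. S100 proteins and annexins, families of calcium-binding proteins, had a median difference of 0.96, with 19 of 23 positive and 0 called by limma (8 at an unadjusted p under 0.05). Genes of DNA replication and mitosis had a median of 0.40, with 25 of 27 positive and 0 called (3 at an unadjusted p under 0.05). Genes of the p53 pathway had a median of 0.56, with 13 of 15 positive and 0 called (7 unadjusted). Urea cycle and amino acid breakdown genes had a median of -0.67, with 6 of 19 positive, 0 called (0 unadjusted), and all 19 were called lower with Yap on than off by limma on 6 arrays, against 12% of all genes. Ribosomal proteins had a median of 0.04, with 11 of 16 positive and 0 called (0 unadjusted).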
